A study of Mus musculus with 77 samples.

Results

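Ltf, Lcn2, Ngp, Mmp9, Cd177, Itgb2l, S100a8 and S100a9 are genes of the secondary granules, the gelatinase granules, the surface and the cytosol of maturing and mature neutrophils. They were followed through the enhancers that the authors assigned to them: every row of the deposited enhancer table whose gene was 1 of these 8 was taken, which gave 61 of 44002 enhancers and 8 of 10096 genes. The rule by which the authors assigned an enhancer to a gene is not stated in the labels. The cells were sorted from fresh mouse bone marrow. Wild type cells were LSK (Lin-, Sca-1+, ckit), preGM (Lin-, Sca-1-, ckit+, CD150-, CD105-), GMP (Lin-, Sca-1-, ckit+, CD150-, FcgRII/III+) and granulocytes (Mac1+Gr-1+). PreGM, a granulocyte-monocyte progenitor upstream of GMP, was also sorted from CEBPA KO mice, which lack the transcription factor CEBPA. Strain, age, sex, the deleted allele and the way it was deleted are not stated in the labels. For each enhancer the table holds 1 value per group for H3K27ac, H3K4me1, PU.1 and CEBPA, and for each gene 1 expression value per group. The libraries behind a value, 2 per ChIP group in the labels, are not separated, so the values below have no replicate error and no test, and their depth is unknown.

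Neutrophil granules are filled in sequence: the peroxidase and serine proteases of the primary granules are made in early progenitors, the proteins of the secondary granules at the myelocyte stage, and gelatinase and many surface proteins later still. CEBPA is needed for granulocyte-monocyte progenitors to form, and its relative CEBPE for the secondary granule genes to be made. H3K4me1 marks enhancers whether active or poised, H3K27ac marks active ones, and PU.1 is a factor that binds many myeloid enhancers.

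Promoter sequences were read for 7 of the 8 genes from RefSeq (build GRCm38.p6), over the 250 bases before the annotated start. A C/EBP-type motif (TTGCNNAA, both strands) occurred in 4 of the 7, and in 9.56% of all 32851 promoters of the same length. A PU.1-type motif (GAGGAAGT, both strands) occurred in 2 of the 7, S100a8 and Itgb2l, and in 2.44% of all. The C/EBP-type matches were those of Ltf, Ngp, Lcn2 and S100a9, Ngp had 2 of them, and Cd177 had a match to neither motif. The promoters of Ltf and Ngp, which encode secondary granule proteins, and of the neighbouring S100a8 and S100a9, whose expression differed most between wild type and KO preGM among the 8 genes, are shown 5′ to 3′ on the strand of the gene, with matches in capitals. Ltf lies at chr9:111019042-111019291 (+), Ngp at chr9:110419558-110419807 (+), S100a8 at chr3:90668821-90669070 (+) and S100a9 at chr3:90695722-90695971 (-). The capitals in S100a8 are the PU.1-type motif on the opposite strand, and those in the other 3 are C/EBP-type. A match is only a run of letters and not a measured binding site.
Ltf: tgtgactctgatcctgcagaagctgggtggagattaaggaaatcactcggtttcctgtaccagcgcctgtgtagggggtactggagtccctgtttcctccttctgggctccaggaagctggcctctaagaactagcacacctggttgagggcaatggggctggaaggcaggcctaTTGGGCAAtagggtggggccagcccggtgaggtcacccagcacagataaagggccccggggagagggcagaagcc
Ngp: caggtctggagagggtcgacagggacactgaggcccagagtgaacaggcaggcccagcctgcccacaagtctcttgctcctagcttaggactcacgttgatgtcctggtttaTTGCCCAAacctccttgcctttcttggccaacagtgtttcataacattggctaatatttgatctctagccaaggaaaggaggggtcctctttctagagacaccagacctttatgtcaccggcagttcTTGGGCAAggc
S100a8: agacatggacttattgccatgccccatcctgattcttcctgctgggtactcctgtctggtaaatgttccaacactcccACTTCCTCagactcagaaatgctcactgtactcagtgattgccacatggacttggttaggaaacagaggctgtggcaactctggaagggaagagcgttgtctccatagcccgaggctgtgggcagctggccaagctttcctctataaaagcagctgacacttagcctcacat
S100a9: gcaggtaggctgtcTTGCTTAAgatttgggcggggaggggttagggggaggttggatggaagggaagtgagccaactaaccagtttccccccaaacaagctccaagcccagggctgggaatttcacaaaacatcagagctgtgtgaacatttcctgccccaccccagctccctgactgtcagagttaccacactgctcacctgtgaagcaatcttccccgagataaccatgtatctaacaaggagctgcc

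S100a8 and Mmp9 had 13 enhancers each, Ltf 9, Cd177 and S100a9 7 each, Ngp 5, Itgb2l 4 and Lcn2 3, where the median gene of the table had 2. Positions are given in build mm9 as the authors deposited them. The 13 Mmp9 enhancers lay within 13.3 kb (chr2:164764197-164777473) and the 9 of Ltf within 21.3 kb (chr9:110907849-110929176). The 20 enhancers of S100a8 and S100a9 lay in 1 stretch of 51.5 kb (chr3:90461284-90512802), with a gap of 5678 bp between those of the 2 genes. The remaining spans were chr2:32244043-32247474 for Lcn2, chr9:110316978-110342868 for Ngp, chr7:25538390-25551976 for Cd177 and chr16:96662190-96665277 for Itgb2l. No enhancer assigned to another gene lay inside any of these spans. Whether an enhancer is exonic, intronic or intergenic was not analysed here, as no annotation of mm9 was at hand.

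In the authors' classes, 53 of the 61 enhancers (86.9%) were enhancers of granulocytes alone, against 21.2% of all 44002. Outside Mmp9 the count was 47 of 48, and the exception was the Lcn2 enhancer at chr2:32244043-32244066, classed to GMP and granulocytes. Mmp9 differed, with 6 of its 13 enhancers in the granulocyte class and the others in classes that include progenitors. The class of bound factors was empty for 52 of the 61 (85.2%, against 59.5% of all). A class with PU.1 was given to 4 (6.56%, against 28.3%) and a class with CEBPA to 7 (11.5%, against 21.5%). These shares are set against all enhancers, and those of the granulocyte class alone are not given.

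The labels of the cells were checked against summed expression of marker lists. The 7 stem and multipotent progenitor markers summed to 10208 in LSK, 7945 in preGM, 1824 in GMP and 369 in granulocytes. The 4 GMP markers, all primary granule genes, were highest in GMP (38358), and the 4 granulocyte markers in the table, Csf3r, Cxcr2, Il1r2 and Mmp8, summed to 284 in GMP and 3599 in granulocytes. The 8 monocyte markers summed to 16609 in GMP and 2715 in granulocytes, and the 2 B cell and 2 T and NK cell markers in the table lay below the median gene of their column in every column. Prg2, the eosinophil marker in the table, was at 59.6 in GMP and 149 in granulocytes, the erythroid factor Klf1 at 64.1 and 167, and the 2 megakaryocyte markers summed to 154 and 221. The part of these other cells in the granulocyte values was not tested. Expression is a deposited value with no stated scale. Wild type preGM appears in a set of 4 stage columns and again in a pair with KO preGM. Ngp is at 678 in the first and 74.3 in the second, while S100a9 is at 220 and 498. The difference is therefore not one of scale alone. Values were therefore compared within each set only. In sorted bulk samples, fewer cells that make a transcript and less of it per cell cannot be told apart.

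All 8 genes had their highest expression in granulocytes, and the size of the last step differed between them. Ltf, which encodes the iron-binding protein lactoferrin, was at 37.4 in LSK, 189 in preGM, 116 in GMP and 4235 in granulocytes. Lcn2, which encodes the siderophore-binding lipocalin-2, was at 23.3, 62.4, 97.1 and 8414. Ngp, a granule protein related to the cathelicidins, was at 63.9, 678, 500 and 10187. The first and the third of these were higher in preGM than in GMP, and all 3 were higher in preGM than in LSK.

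Mmp9, which encodes gelatinase B, was at 33.8 in LSK, 28.2 in preGM, 30.1 in GMP and 6049 in granulocytes. Cd177, a surface glycoprotein of neutrophils, was at 10.6, 15.1, 17.6 and 6581, and Itgb2l, an integrin beta chain, at 38.1, 38.8, 43.7 and 3136. These 3 genes were nearly flat over the progenitors. S100a8 and S100a9, the subunits of calprotectin, formed another pattern: S100a8 was at 26.9, 462, 2902 and 8118, and S100a9 at 30.5, 220, 579 and 5156. Both were higher at every stage than at the stage before.

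**Figure D1:**
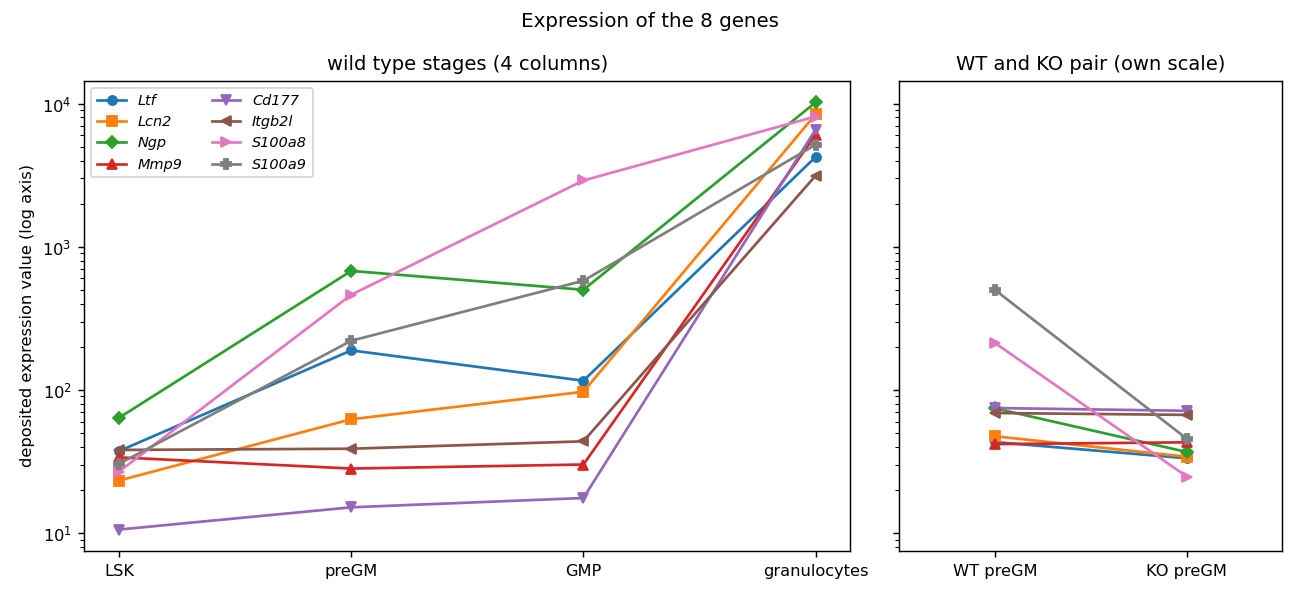
Deposited expression value (log axis) of the 8 genes in LSK, preGM, GMP and granulocytes (left) and in the separate pair of wild type and KO preGM (right), 1 value per gene and column. All 8 lines are highest in granulocytes, S100a8 and S100a9 climb from LSK onwards, and in the pair these 2 lines are the ones that drop most.

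On log2(value + 40), 4 of the 8 genes were at least 2-fold higher in preGM than in LSK, against 1.61% of all 10096 genes: S100a8 (log2 ratio 2.91), Ngp (2.79), S100a9 (1.89) and Ltf (1.56). None of the 8 was 2-fold lower, against 0.802% of all. With a pseudocount 4 times larger, Ltf (0.82) and S100a9 (1.00, just under 2-fold) no longer counted. From preGM to GMP, 2 of the 8 were at least 2-fold higher, against 2.86% of all: S100a8 (2.55) and S100a9 (1.25), and 0 were lower, against 2.89%. With the larger pseudocount S100a9 was at 0.96. From GMP to granulocytes all 8 were, against 11.4% of all, with a median log2 ratio of 5.01 beside -0.07 over all genes. That step ran from 1.47 for S100a8 to 6.85 for Cd177, the largest of the 10096 genes on this scale. As a plain ratio of granulocytes to LSK, the 8 genes spanned 82.3 (Itgb2l) to 622 (Cd177).

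H3K27ac was highest in granulocytes at 61 of 61 enhancers, where 48.3% of all enhancers had their highest value there. As 53 of the 61 are classed to granulocytes alone, against 21.2% of all, all enhancers are not a like comparison for either histone mark in granulocytes. Counts within that class are given below. The median over the 61 was 0.577 in LSK, 0.420 in preGM, 0.478 in GMP and 2.51 in granulocytes, in the deposited signal unit. Those medians stood at the median percentile of 17.4, 12.5, 12.5 and 69.5 among all enhancers of the same column. The ranges overlapped: GMP values ran up to 2.85, at 1 Ngp enhancer, and granulocyte values from 0.726 to 6.62.

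**Figure D2:**
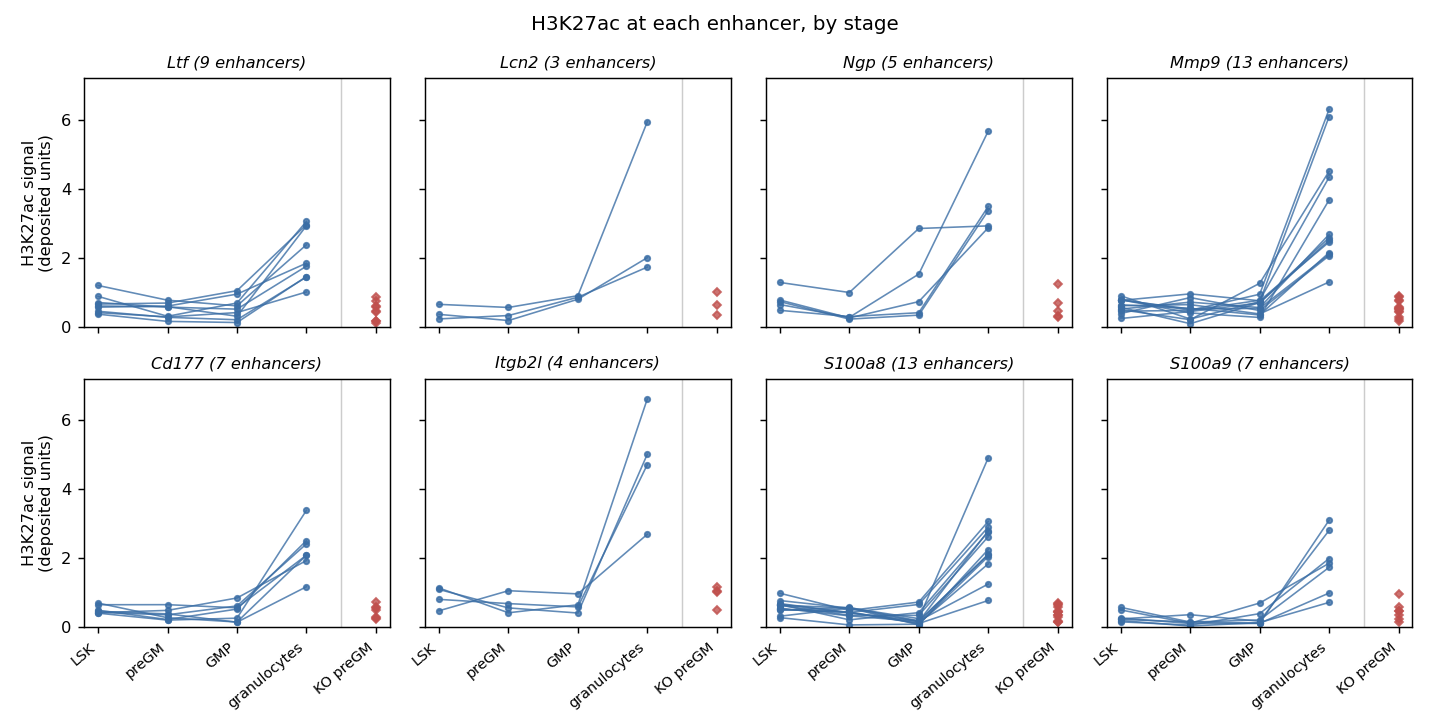
H3K27ac signal (deposited units) at each of the 61 enhancers, 1 panel per gene, with wild type stages joined by lines and KO preGM as diamonds. All lines end highest in granulocytes, and most stay low up to GMP, where 2 Ngp lines are at 1.53 and 2.85 and 1 Mmp9 line at 1.27.

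With 0.7 added to both values, 51 of the 61 enhancers were at least 2-fold higher in granulocytes than in GMP, against 14.1% of all, and 0 were lower, against 6.05%. The median log2 ratio was 1.40, beside 0.14 over all enhancers. With a pseudocount 4 times larger the count was 10 of the 61, beside 3.48% of all. The count was 7 of 9 for Ltf, 1 of 3 for Lcn2, 4 of 5 for Ngp, 12 of 13 for Mmp9, 6 of 7 for Cd177, 4 of 4 for Itgb2l, 12 of 13 for S100a8 and 5 of 7 for S100a9. Among the 9324 enhancers that the authors class to granulocytes alone, the count was 43 of 53 (81.1%) for these genes and 33.4% for the whole class. The class members of these genes started lower, with a GMP median of 0.419 against 0.892, and ended at 2.38 against 2.07.

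Single enhancers show the range of that step. The highest granulocyte value was at the Itgb2l enhancer chr16:96664948-96665277, which read 1.14 in LSK, 0.426 in preGM, 0.657 in GMP and 6.62 in granulocytes (log2 ratio to GMP 2.43). The largest log2 ratio, 2.55, was at the S100a8 enhancer chr3:90463857-90464051, with 0.643, 0.567, 0.257 and 4.91. At Mmp9 the enhancers chr2:164773005-164773028 and chr2:164772424-164772581 reached 6.31 and 6.10 from 0.951 and 0.735 in GMP. The Lcn2 enhancer chr2:32244043-32244066 read 0.658, 0.568, 0.909 and 5.95, while the other 2 of that gene ended at 1.74 and 2.01. The smallest log2 ratio, 0.03, was at the Ngp enhancer chr9:110342780-110342868, which read 1.29, 1.00, 2.85 and 2.93. That element lay apart from the other 4 of Ngp by 20973 bp.

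Before GMP, few of these enhancers differed 2-fold in H3K27ac. From LSK to preGM none of the 61 was at least 2-fold higher (0.72% of all) or lower (0.364%), and the median log2 ratio was -0.24, beside 0.03 over all. Most LSK and preGM values were below the 0.7 added to both, where a 2-fold loss cannot count. In direction alone 15 of the 61 were higher in preGM and 46 lower, where 52.4% of all were higher. With a pseudocount 4 times smaller 14.75% of the 61 were 2-fold lower, and the share of all at that setting is not given. From preGM to GMP 0 were lower, against 0.411% of all, and 3 were higher, against 9.21%: the Ngp enhancers starting at 110321539 (0.282 and 1.53) and 110342780 (1.00 and 2.85), and the Mmp9 enhancer starting at 164775294 (0.214 and 1.27). S100a8, whose expression was already 2902 in GMP, had a median H3K27ac of 0.436 in preGM and 0.190 in GMP, and 9 of its 13 enhancers were lower in GMP. At Lcn2 and Ngp all 3 and all 5 were higher in GMP than in preGM. Over the 61, 33 were higher in GMP in direction alone, against 71.4% of all.

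H3K4me1 was highest in granulocytes at 59 of the 61 enhancers, against 66.4% of all. The median was 0.510 in LSK, 0.552 in preGM, 1.04 in GMP and 7.45 in granulocytes. The first 3 of those medians stood at the percentiles 3.24, 2.37 and 1.92 among all enhancers, near the bottom of each progenitor column, and the last at 75.4. With 2 added to both values, 50 of the 61 were at least 2-fold higher in granulocytes than in GMP, against 9.69% of all, and 0 were lower, against 2.81%. The median log2 ratio was 1.47, beside 0.32 over all. With a pseudocount 4 times larger the count was 6 of the 61, beside 0.157% of all. Within the granulocyte class the count was 47 of 53 (88.7%) against 37.3% of the class, from GMP medians of 0.892 and 2.57 to granulocyte medians of 7.43 and 6.54.

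**Figure D3:**
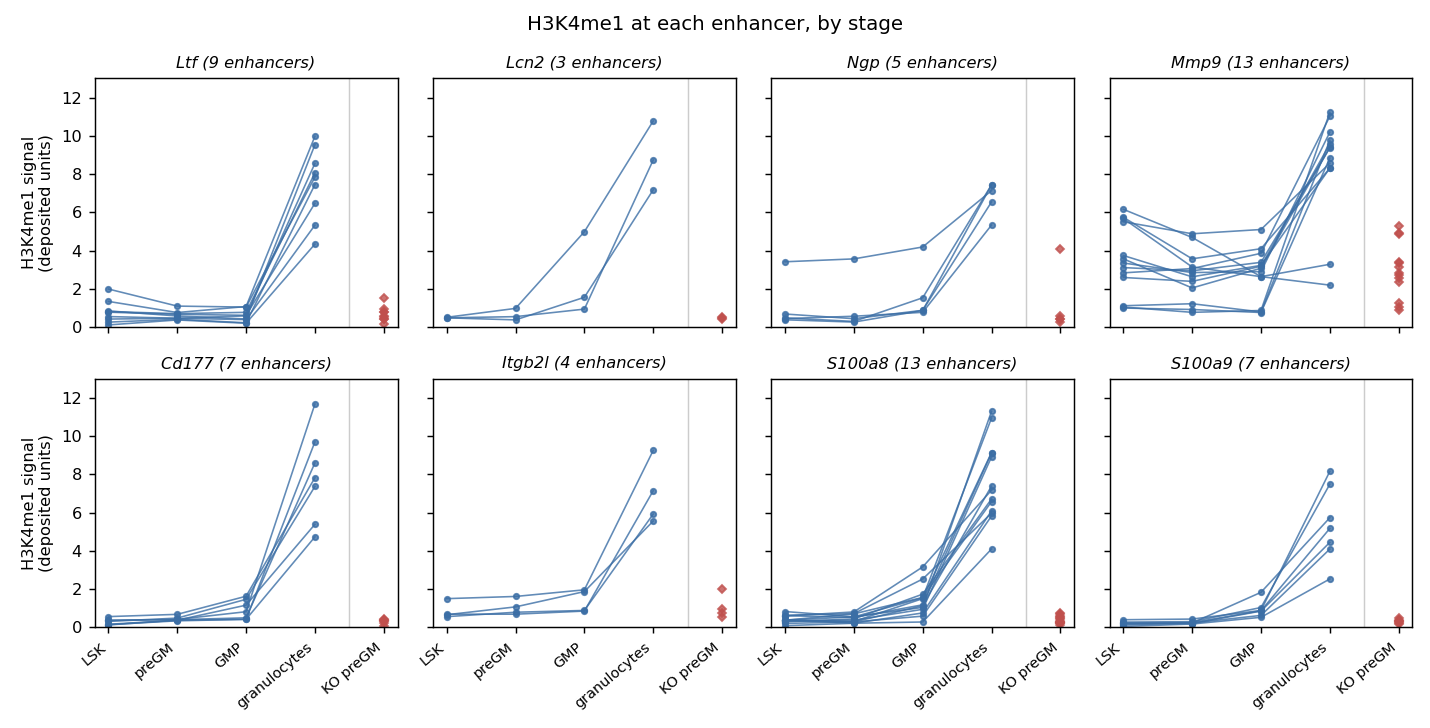
H3K4me1 signal (deposited units) at each of the 61 enhancers, 1 panel per gene, with wild type stages joined by lines and KO preGM as diamonds. Mmp9 lines start between 0.996 and 6.16 in LSK (median 3.35), and 2 of them end below their LSK value. Lines of the other genes start between 0.0525 and 3.41 (median 0.406), so the ranges overlap.

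Mmp9 had more H3K4me1 than the other genes before the granulocyte stage. Over its 13 enhancers the median was 3.35 in LSK, 2.85 in preGM, 3.08 in GMP and 9.38 in granulocytes, and the first 3 stood at the percentiles 51.8, 43.2 and 29.9. Over the 48 enhancers of the other 7 genes the LSK median was 0.406, at percentile 1.89. H3K27ac at the same Mmp9 enhancers had a median of 0.619 in LSK, close to the 0.568 of the others. The Mmp9 enhancer chr2:164768579-164768639 read 5.51, 4.88, 5.10 and 8.57 for H3K4me1 and 0.460, 0.483, 0.776 and 4.34 for H3K27ac. At 2 Mmp9 enhancers H3K4me1 was highest in LSK while H3K27ac was highest in granulocytes. The one at chr2:164774427-164774485 read 6.16, 4.69, 2.64 and 2.19 for H3K4me1 and 0.792, 0.409, 0.278 and 3.68 for H3K27ac. The one at chr2:164775294-164775789 read 5.68, 3.14, 2.64 and 3.28 for H3K4me1 and 0.504, 0.214, 1.27 and 4.51 for H3K27ac. Both are in a class of preGM and GMP in the deposited table.

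The Ngp enhancer at chr9:110342780-110342868 also had early H3K4me1, at 3.41, 3.56, 4.19 and 7.13. The other 4 of Ngp read between 0.381 and 0.683 in LSK. The highest granulocyte value of all 61 was at the Cd177 enhancer chr7:25542325-25542353, which read 0.365, 0.422, 0.825 and 11.7 (log2 ratio to GMP 2.28). At Ltf, chr9:110912696-110912807 read 1.34, 0.760, 1.07 and 9.98. At Itgb2l, chr16:96664948-96665277 read 1.51, 1.62, 1.97 and 9.26.

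The step from preGM to GMP was small in H3K4me1. A single enhancer was at least 2-fold higher in GMP, against 0.855% of all: Lcn2 chr2:32244043-32244066, at 0.510 in LSK, 0.976 in preGM, 4.98 in GMP and 10.8 in granulocytes. In direction alone 51 of 61 were higher in GMP, against 85.7% of all, which is near that share. By gene, all were higher in GMP for S100a8 (13), S100a9 (7), Cd177 (7), Ngp (5), Itgb2l (4) and Lcn2 (3). The count was 9 of 13 for Mmp9 and 3 of 9 for Ltf. The largest at S100a8 was chr3:90463857-90464051, at 0.812 in preGM and 3.17 in GMP, and the largest at S100a9 was chr3:90490057-90490482, at 0.235 and 1.84. From LSK to preGM none of the 61 was 2-fold higher (0.00227% of all) or lower (0.00682%). Most LSK values were below the 2 added to both, where a 2-fold loss cannot count.

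Genes listed as primary granule genes, most of which encode granule proteins made earlier, mostly went the other way at the last step. Of 8 listed genes 6 were in the table, with 30 enhancers: H3K27ac was at least 2-fold higher in GMP than in preGM at 22 of 30 (median log2 ratio 1.53), against 9.21% of all, and 2-fold lower in granulocytes than in GMP at 22 of 30 (median -1.80), against 6.05%. Their median H3K27ac percentile was 90.1 in GMP and 32.0 in granulocytes. In H3K4me1 3 of the 30 were 2-fold higher in granulocytes, against 9.69% of all, 0 were lower, against 2.81%, and the median log2 ratio was 0.11. Expression was 2-fold lower in granulocytes for 5 of the 6 genes, and 18.9% of all genes were. The exception was Serpinb1a, at 2703 in GMP and 4347 in granulocytes. Mpo, the peroxidase of these granules, was at 18647 in GMP and 1982 in granulocytes.

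**Figure D4:**
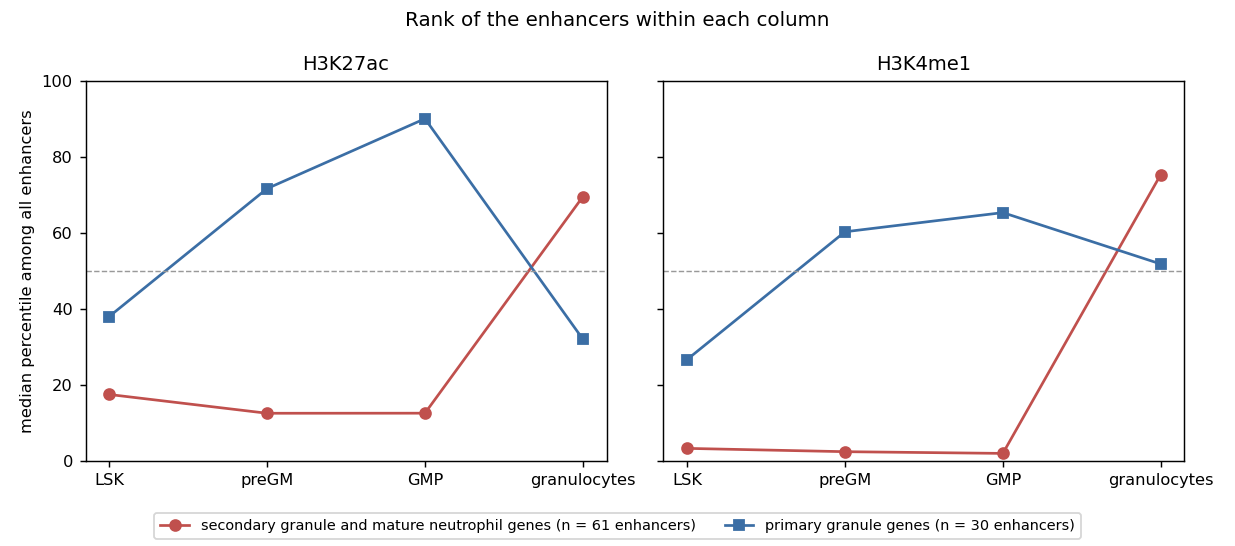
Median percentile among all enhancers (y axis) of the 61 enhancers of the 8 genes and of 30 enhancers of primary granule genes in LSK, preGM, GMP and granulocytes, for H3K27ac (left) and H3K4me1 (right); the dashed line is the middle of the column. The 61 are at 12.5 in GMP and 69.5 in granulocytes for H3K27ac, and the 30 at 90.1 and 32.0.

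Other genes of secondary and gelatinase granules and mature neutrophils, 20 of 28 listed being in the table with 202 enhancers, had the direction of the 8 genes. H3K27ac was at least 2-fold higher in granulocytes than in GMP at 92 of 202, against 14.1% of all, and lower at 0 (median log2 ratio 0.95). H3K4me1 was higher at 77, against 9.69% (median 0.78). Expression was higher for 19 of the 20, against 11.4% of all genes (median 3.42). The 4 with the largest ratio were Camp, the cathelicidin (205 and 13747), Cyba, a subunit of the phagocyte oxidase (157 and 9548), Ceacam10 (14.0 and 2074) and Itgb2, the common beta chain of leukocyte integrins (238 and 10856). The exception was Mgst1, at 2020 and 3083 (log2 ratio 0.60). From LSK to preGM 5 of the 20 were higher, against 1.61%, led by Chi3l3 (14.4 and 264) and Hp (36.7 and 320). From preGM to GMP 3 were, against 2.86%, led by Hp (320 and 2078).

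Of 10 listed factors of granulocyte development 8 were in the table. Cebpe and Spi1, the gene of PU.1, were not, so their expression was not seen here. From GMP to granulocytes Klf5 (35.4 and 399), Stat3 (180 and 696) and Cebpd (279 and 706) were at least 2-fold higher, against 11.4% of all genes. Gfi1 (844 and 165) and Cebpa (241 and 38.4) were lower, 2 of 8 against 18.9% of all, which is near that share.

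PU.1 signal was low at most of the 61 enhancers. Its median was 0.501 in LSK, 0.533 in preGM and 0.482 in GMP, at percentiles 19.0, 17.0 and 13.3 among all enhancers. Within the granulocyte class the median of these genes was 0.434 in preGM and 0.462 in GMP, beside 0.839 and 0.934 for the whole class. PU.1 in granulocytes was not analysed here. The 4 enhancers with a PU.1 class had the highest PU.1 in GMP of the 61. Mmp9 chr2:164768579-164768639 read 7.69 in LSK, 10.8 in preGM and 9.28 in GMP. Ltf chr9:110912696-110912807 read 2.05, 5.30 and 4.52. Itgb2l chr16:96664948-96665277 read 2.17, 3.29 and 3.23, and S100a8 chr3:90472463-90472601 read 0.722, 1.80 and 6.76. PU.1 was thus highest in preGM at the first 3 and in GMP at S100a8, whose LSK and preGM values were matched or passed by enhancers without a PU.1 class, such as Mmp9 chr2:164766536-164766749 (1.52 and 1.91).

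**Figure D5:**
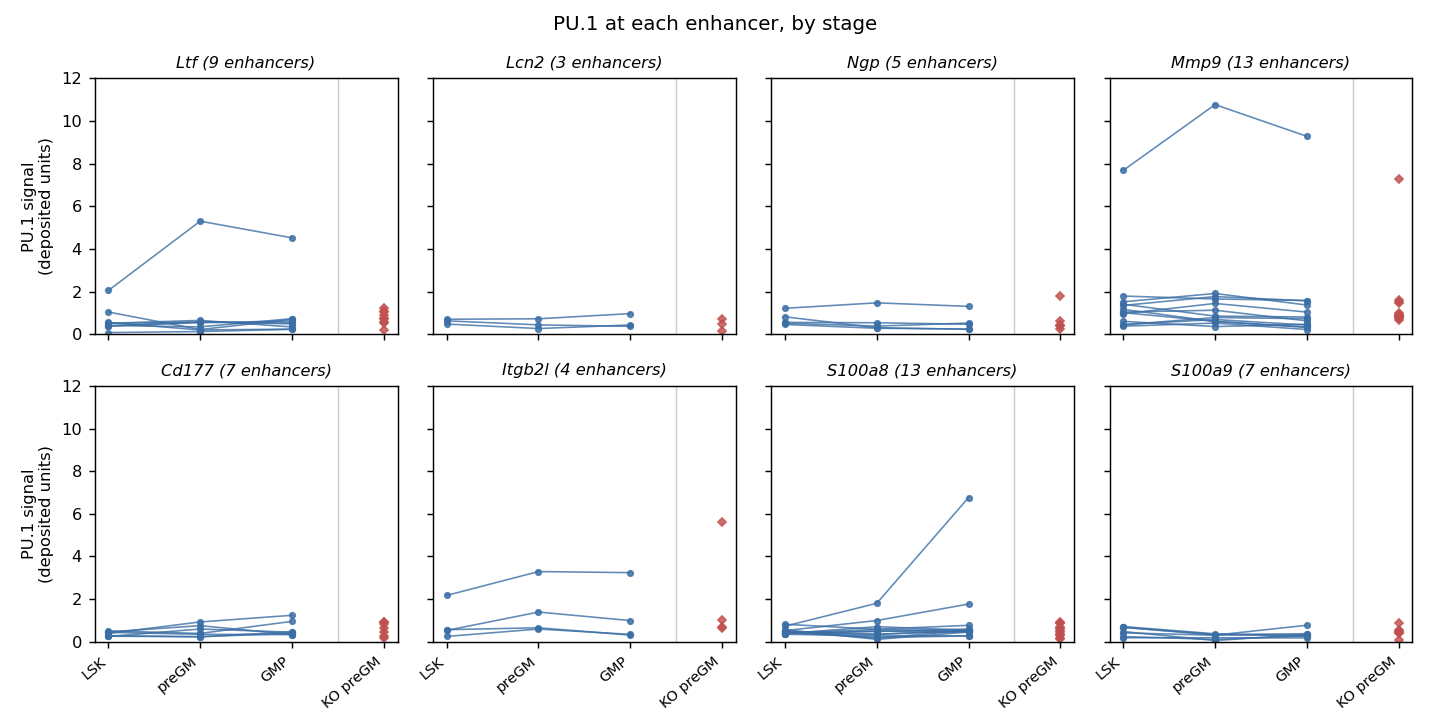
PU.1 signal (deposited units) at each of the 61 enhancers, 1 panel per gene, in LSK, preGM and GMP (lines) and in KO preGM (diamonds). Single lines stand out at Ltf (5.30 in preGM), Mmp9 (10.8), Itgb2l (3.29) and S100a8 (6.76 in GMP); in KO preGM no Ltf diamond is above 1.23, and Itgb2l has one at 5.62.

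With 0.6 added to both values, 1 of the 61 was at least 2-fold higher in preGM than in LSK (the Ltf enhancer above, against 6.56% of all) and 1 lower (Ltf chr9:110907849-110907969, 1.04 and 0.214, against 0.0364%). From preGM to GMP 1 was higher, the S100a8 enhancer above, against 0.768% of all, and 0 were lower, against 0.775%. At that S100a8 enhancer H3K4me1 was 0.724 in preGM and 2.53 in GMP, and H3K27ac 0.222 and 0.430.

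CEBPA signal in wild type preGM ranked these enhancers near the middle. Of the 61, 15 (24.6%) were in the top 25% of all enhancers and 1 in the top 10%, and the median was 0.584, beside 0.534 over all. The highest, 1.17 (percentile 91.8), was S100a8 chr3:90472463-90472601, the enhancer with the PU.1 step in GMP. By gene, the next highest enhancers were Ltf chr9:110912696-110912807 (0.965), Ngp chr9:110342780-110342868 and Cd177 chr7:25538390-25538695 (0.899 each). Lcn2 and S100a9, both with a C/EBP-type motif in the promoter, had no enhancer in the top 25%. The 7 enhancers with a CEBPA class ranged from percentile 24.9, at the Ngp enhancer starting at 110321539, to 91.8. The class and this signal are therefore not the same measure.

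In CEBPA KO preGM the targeted gene itself, Cebpa, was at 48.3 against 208 in wild type. S100a9 was at 498 in wild type and 45.7 in KO preGM, and S100a8 at 212 and 24.8. These 2 of the 8 genes were at least 2-fold lower (log2 ratios -2.65 and -1.96 with 40 added), against 0.406% of all genes, and 0 of the 8 were higher, against 0.277%. As plain ratios they were 10.9 and 8.55 times lower in the KO. Ngp was at 74.3 and 36.9 (log2 ratio -0.57, or 2.02 times lower as a plain ratio), Ltf at 43.2 and 33.3, and Lcn2 at 47.4 and 34.1. Mmp9 (41.8 and 43.0), Cd177 (74.7 and 71.5) and Itgb2l (69.0 and 66.9) were close to equal. All but S100a8 and S100a9 were already low in wild type, from percentile 11.7 (Mmp9) to 28.9 (Cd177) of that column. Their ratios rest on the pseudocount, and a loss in the KO could hardly show. In the other lists Cxcr2 (570 and 87.7), the chemokine receptor, and Hp (246 and 49.8), haptoglobin, were 2-fold lower among 20 genes, and 4 of the 6 primary granule genes were.

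Several marker lists moved with S100a8 and S100a9 in this pair. From wild type to KO preGM the summed monocyte markers went from 3191 to 564 and were all below the median gene in the KO, the granulocyte markers from 780 to 250, the GMP markers from 9107 to 4714 and the stem cell markers from 4898 to 3202. Cxcr2 alone made up 570 of the granulocyte marker sum in wild type, and Il1r2 was higher in the KO (39.4 and 55.2). The megakaryocyte markers went from 313 to 400, the T and NK cell markers from 96.8 to 134, the B cell markers from 86.5 to 92.2, Klf1 from 204 to 215 and Prg2 from 46.0 to 34.8. Their part in the result was not tested.

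At the enhancers of the 8 genes few histone mark values differed 2-fold between wild type and KO preGM, but most wild type values were too low for a loss to count. In H3K27ac 1 of the 61 was at least 2-fold higher in KO preGM, S100a9 chr3:90494788-90495108 (0.123 in wild type and 0.977 in KO), against 0.441% of all, and 0 were lower, against 0.47%. With 0.7 added, a wild type value below 0.7 cannot count as 2-fold lower, even if the mark is lost. Most of the 61 were below 0.7, among them every S100a8 (highest 0.580) and S100a9 enhancer (highest 0.370). The medians over the 61 were 0.420 in wild type and 0.485 in KO. At S100a8 the median log2 ratio was 0.02 and 7 of 13 enhancers were higher in the KO. At S100a9, whose expression was lower in the KO, the median H3K27ac was 0.123 in wild type and 0.483 in KO, the median log2 ratio was 0.45 and 6 of 7 enhancers were higher, among low values. Over the 61, 39 were higher in direction alone, against 54.8% of all. In H3K4me1 none of the 61 was 2-fold higher (0% of all) or lower (0.00909%), and the medians were 0.552 and 0.510. With 2 added, a wild type value below 2 cannot count as 2-fold lower, even if the mark is lost in the KO. Most of the 61 were below 2 in wild type, among them every S100a8 (highest 0.812) and S100a9 enhancer (highest 0.440). The lowest H3K4me1 log2 ratio of the 61, -0.27, was at S100a8 chr3:90472463-90472601 (0.724 and 0.256). All 7 Cd177 enhancers were lower in the KO, by at most 0.17 on the log2 scale. Over the 61, 26 were higher in the KO in direction alone, against 72% of all.

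PU.1 differed at a few of them. Ltf chr9:110912696-110912807 was at 5.30 in wild type and 1.03 in KO preGM (log2 ratio -1.86), the only one of the 61 at least 2-fold lower, against 6.15% of all, and 0 were higher, against 0.0955%. The authors class this enhancer as bound by PU.1 and not by CEBPA, and its CEBPA signal in wild type preGM was the 0.965 given above. Its H3K27ac was 0.312 in wild type and 0.167 in KO. S100a8 chr3:90472463-90472601 was at 1.80 and 0.696 (log2 ratio -0.89), and Mmp9 chr2:164768579-164768639 at 10.8 and 7.28. Itgb2l chr16:96664948-96665277 went the other way, at 3.29 and 5.62. In direction alone 40 of the 61 were higher in the KO, against 28.3% of all, at a low median signal of 0.533 in wild type and 0.678 in KO. Most wild type values were below the 0.6 added to both, where a 2-fold loss cannot count. At the 11 enhancers whose higher value was at least the median of the assay, the median log2 ratio was -0.27. Over all 44002 enhancers without that filter the median was -0.27, and the value of all under the same filter is not given.

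Genes outside the 8 with the most similar profile were taken by Euclidean distance to the median profile of the 8, centred over the 4 stages, among 10096 genes. By expression they were Cd9, Ifitm6, 1100001G20Rik, Slfn2 and Lgals3, at distances of 0.831 to 0.943. Among the 8 genes themselves the distance to the median profile was 0.629 for Ltf and 3.29 for S100a8. Ifitm6 was at 28.5 in LSK, 45.4 in preGM, 51.2 in GMP and 5193 in granulocytes, and Lgals3, which encodes galectin-3, at 17.0, 21.1, 100 and 3819. By H3K27ac at the enhancer with the highest mean of each gene they were C130026L21Rik, Rinl, Llph, Tbx21 and Lats2, at distances of 0.126 to 0.151. The 2 lists share no gene, as would most random pairs of lists with 5 of 10096 genes each.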

How the data were processed

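H3K27ac, H3K4me1, PU.1 and CEBPA were measured by ChIP-seq in sorted cells. The labels list 77 libraries in 33 groups. Per the submitters' processing notes, ChIP-seq reads went through Bowtie2, MACS2 and bedtools and RNA-seq reads through STAR, featureCounts, DESeq2 and bedtools, on build mm9, with no versions. The deposited table holds 1 linear signal value per enhancer and group, and 15 such columns were used, each matching 2 listed libraries. Its 6 expression columns were treated as a deposited score, since their unit, their scaling and the libraries behind them are not given in the sources used here. They hold no value of 0. Wild type preGM in the stage columns and in the pair differs gene by gene and not by a scale alone. A further 11 value columns were not used, because they match no listed sample or hold a measure with no description in the labels. Colony-forming progenitors and monocytes were not analysed here. Depth is unknown.

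Ratios were log2((value + pseudocount)/(value + pseudocount)), where the pseudocount was the 25th percentile of an assay, rounded to 1 digit: 0.7 for H3K27ac, 2 for H3K4me1, 0.6 for PU.1 and 40 for expression. A 2-fold ratio was counted among these genes' enhancers and among all, with no test and no filter. A starting value below the pseudocount cannot count as 2-fold lower, however far it falls. Every gene of the 8 is named, with at most 4 of each programme list per comparison (the largest ratios in the main direction) and the exceptions to a count. Other enhancers are named for the highest value or the largest or smallest ratio, and a few were chosen after their values were seen. The genes, lists and rules were chosen with earlier results of these data known. The ratio and count were tested on simulated data with large changes planted at enhancers at or above the median signal. This does not test 2-fold changes at low values. Python 3.11.15, pandas 2.3.3, NumPy 2.4.6 and matplotlib 3.10.9 were used. Alternatives varied the pseudocount, scaling, a filter on low values, enhancer width and the unit counted, and, chosen after seeing the data, left out Mmp9 or S100a8 and S100a9.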

Additional observations from a re-analysis of the deposited data

How the results depend on the processing

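Values are the share of enhancers, or of genes for expression, at least 2-fold different in the main direction, out of 61 enhancers or 8 genes unless given. The share over all enhancers or genes is given only for CEBPA by gene and, above, for the larger pseudocount in granulocytes against GMP. The other values therefore have no background beside them and show only how the counts move. A pseudocount 4 times smaller gave 14.75% (lower) for H3K27ac in preGM against LSK, 16.39% for H3K27ac and 14.75% for H3K4me1 in GMP against preGM, 8.197% for H3K27ac in the KO and 11.48% for PU.1 in GMP. It turned the balance for PU.1 in preGM against LSK (6.557% higher, 8.197% lower) and in the KO (4.918% lower, 9.836% higher). A pseudocount 4 times larger gave 16.39% for H3K27ac and 9.836% for H3K4me1 in granulocytes against GMP, 0% for both marks in GMP against preGM, 0% for H3K27ac in the KO and for PU.1 in preGM, and 25% and 12.5% for expression in preGM against LSK and GMP against preGM. Subtracting the median of all enhancers gave 0% for H3K27ac in GMP against preGM and in the KO, and 0% higher with 4.918% lower for PU.1 in preGM against LSK. The filter on low values left 60% of 5 for H3K27ac in GMP, 0% of 4 in the KO, 16.67% of 6 for H3K4me1 in GMP, 8.333% of 12 for PU.1 in preGM and in GMP, 9.091% of 11 in the KO, and for expression 100% of 4, 50% of 4 and 100% of 2 in preGM, GMP and the KO. Each gene counted once by its strongest enhancer gave 12.5% for H3K27ac in GMP and the KO, H3K4me1 in GMP and PU.1 in preGM, GMP and the KO. Enhancers of at least 100 bp gave 0% for H3K4me1 in GMP, and leaving out S100a8 and S100a9 gave 0% for H3K27ac in the KO and PU.1 in GMP. CEBPA in the top 25% was 75% by gene, beside 50.6% of all genes and 69.3% of the 4109 genes with 3 to 13 enhancers, since a gene's highest enhancer ranks higher by construction, and 1.639% of enhancers were in the top 10%. Fewer enhancers enter the filtered counts by construction; otherwise the cause was not tested. Expression in granulocytes against GMP stayed at 8 of 8 under every pseudocount, the scaling and the filter.

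No paired analysis was possible because the table holds 1 pooled value per group; leaving out a replicate could not be done for the same reason. Ratios of low values, such as H3K27ac below 1 in progenitors, rest on the pseudocount, and depth is unknown.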
